A study of Mus musculus with 8 samples.

Results

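The genes described here are 10 chemokine genes, Ccl1, Ccl3, Ccl4, Ccl5, Ccl17, Ccl22, Cxcl9, Cxcl10, Cxcl16 and Xcl1, read by their symbols from a table of 28239 gene symbols. All 10 were in the table, and 8 of them had enough reads to be tested. Naïve CD4+ T cells were isolated by negative selection from spleens of mice on a C57BL/6 background, aged 10 to 12 weeks, and cultured with IL-2, TGF-β and beads carrying antibodies to CD3 and CD28 so that they became regulatory T cells (Tregs). RNA was taken on day 2 and sequenced near the 3′ ends of transcripts (MACE-seq). There were 4 libraries from wild-type (WT) mice and 4 labelled Alox15-/-, from mice deficient in the 12/15-lipoxygenase gene Alox15. They are named here by label and replicate number, WT 1 to 4 and Alox15-/- 1 to 4. The WT mice came from Charles River and the deficient mice from The Jackson Laboratory, so genotype and supplier cannot be told apart. Mice of both sexes were used, and the labels do not give the sex behind a library. The study counts its Alox15-/- replicates in mice, whereas the labels do not say whether the libraries of a group came from separate mice or separate cultures, and in the latter case p-values would measure only the spread between cultures. The gene is deleted in the whole animal rather than in T cells alone, as far as the genotype label goes.

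Chemokines are small secreted proteins that draw leukocytes along a concentration gradient by binding G protein-coupled receptors on their surface. Activated T cells make several of them, and antigen-presenting and myeloid cells make others. Ccl17 and Ccl22 attract cells bearing Ccr4, which includes Tregs, whereas Cxcl9 and Cxcl10 are induced by interferons and attract cells bearing Cxcr3. Ccl3, Ccl4 and Ccl5 are inflammatory chemokines that recruit monocytes and T cells.

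The total count ranged from 3723151 to 9538962 per library. Levels are given as CPM, counts relative to a fixed library total, after TMM scaling in edgeR. Genes that reached 2 CPM in 4 or more libraries were compared by edgeR's quasi-likelihood test with Benjamini–Hochberg adjustment over all 12700 genes that passed, and a gene was called at an adjusted p under 0.05. Of these genes 158 were called, or 1.24%, 133 (1.05%) being higher with the Alox15-/- label and 25 (0.197%) lower. Alox15 itself, the targeted gene, stood at 63.4 to 70.2 CPM in the libraries labelled Alox15-/- and at 1.87 to 8.98 CPM in those labelled WT. This is opposite to what the labels would give for a gene whose transcript is lost. Reads near the 3′ end need not cover the altered part of the gene, whose position is not given in the sources used here, so this level does not settle the labels. Directions are hence stated by label, as Alox15-/- against WT. The Treg genes Foxp3, Il2ra, Ctla4, Ikzf2 and Tnfrsf18 summed to between 1655 and 1811 CPM in the libraries labelled Alox15-/- and to between 1745 and 1940 CPM in those labelled WT, and none of the 5 was called.

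Of the 8 members tested, 2 were called, Ccl22 and Cxcl16, both higher, and 0 were called lower, where Cxcl16 entered the test only through the libraries in which it was high. A further 3, Xcl1, Cxcl10 and Ccl5, had an unadjusted p under 0.05 in the same direction and did not pass the adjustment. Over all 12700 genes tested, 996 had an unadjusted p under 0.05 in either direction. Ccl3, Ccl4 and Ccl1 had standard errors as large as 0.51, 0.55 and 0.46 on the log2 scale and differed less between the groups than within WT. Ccl17 and Cxcl9 failed the filter and are given as levels. The median log2 fold change was 1.31 over the 8 tested members and -0.01 over all genes tested. The filter shapes that median, since Cxcl16 reached 2 CPM in 4 libraries labelled Alox15-/- before scaling and in 0 labelled WT, and Cxcl10 in 3 and 1. Both calls changed with the libraries that entered the fit, as given for each gene. In bulk libraries such as these, a gene expressed by fewer cells and a gene expressed less per cell cannot be told apart. Levels are compared between libraries and not between genes.

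**Figure D1:**
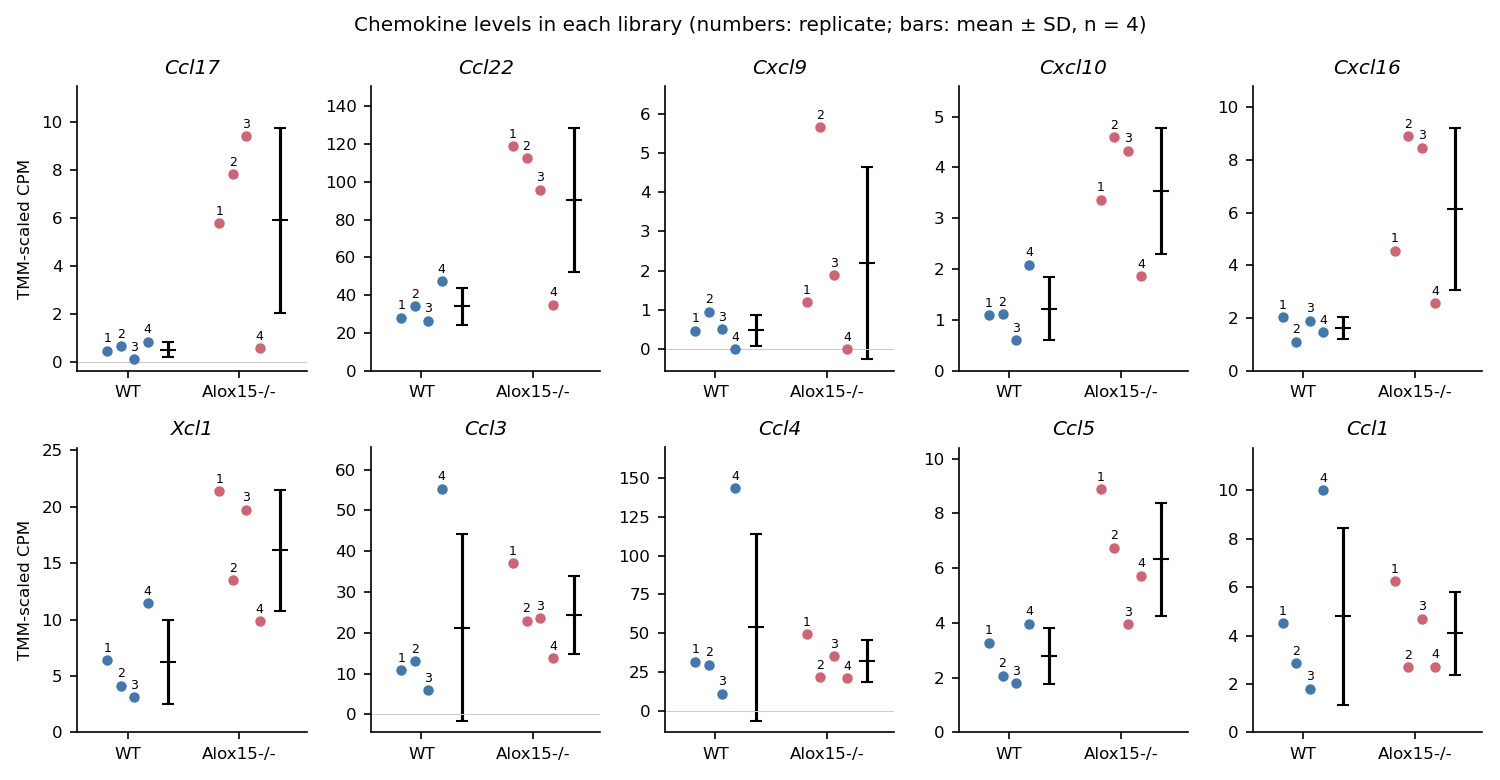
Each panel plots 1 chemokine gene, with the TMM-scaled level in CPM on a linear vertical axis, 1 point for each of the 4 WT and 4 Alox15-/- libraries with its replicate number, and the mean ± SD beside each group. Only for Cxcl16 do all 4 points labelled Alox15-/- (2.58 to 8.91 CPM) sit above every WT point (1.115 to 2.03 CPM), Alox15-/- 4 is the lowest of its group for 8 of the 10 genes, and WT 4 is the highest of its group for 8.

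Ccl22 and Ccl17 are the ligands of Ccr4 and both lie on the plus strand of chromosome 8 (GRCm38), 58.8 kb apart with Cx3cl1, another chemokine gene, between them, Ccl22 (ENSMUSG00000031779.3) from 94745590 to 94751699 and Ccl17 (ENSMUSG00000031780.2) from 94810453 to 94812036. The RefSeq promoter sequences of this pair (GRCm38.p6) are shown because the genes lie close together, share a receptor and were both higher in the same 3 libraries. Each reads 5′ to 3′ on the strand of the gene and stops before the first annotated transcript start, which for Ccl22 left 156 of 250 bases. Capitals mark matches to the letters of a STAT6 site (TTCNNNNGAA) or of a gamma-activated site (TTCNNNGAA), both searched on either strand along with an interferon response element (GAAANNGAAA), the NF-kB consensus, AP-1 (TGANTCA) and TATAAA.
Ccl17, chr8:94810203-94810452, plus strand: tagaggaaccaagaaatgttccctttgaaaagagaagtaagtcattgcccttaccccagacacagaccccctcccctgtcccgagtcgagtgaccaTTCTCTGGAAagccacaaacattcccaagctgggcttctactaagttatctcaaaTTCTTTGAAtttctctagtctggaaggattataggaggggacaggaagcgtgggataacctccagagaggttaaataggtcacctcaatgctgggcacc
Ccl22, chr8:94745434-94745589, plus strand: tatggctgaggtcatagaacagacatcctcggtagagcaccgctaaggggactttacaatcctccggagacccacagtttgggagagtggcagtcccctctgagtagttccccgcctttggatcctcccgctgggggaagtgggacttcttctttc
The Ccl17 window held 1 STAT6 match, beginning 154 bases before the RefSeq start, and 1 gamma-activated site match, beginning 99 bases before it. Of the 32851 RefSeq mouse promoters, 5.85% hold the STAT6 letters and 7.02% those of the gamma-activated site in 250 bases. The shorter Ccl22 window held no match to any of the 6. A match is a description of letters, and no binding was measured.

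Ccl22 was measured at 119, 112, 95.8 and 35.1 CPM in Alox15-/- 1 to 4, and at 28.1, 34.3, 26.5 and 47.6 CPM in WT 1 to 4. Alox15-/- 1, 2 and 3 lay above every WT library, whereas Alox15-/- 4 lay inside the WT range. The means were 90.5 ± 38.2 CPM for the Alox15-/- label and 34.1 ± 9.60 CPM for WT (SD, n = 4 each), a ratio of 2.65. Ccl22 rose by 1.41 ± 0.29 on the log2 scale (SE, adjusted p = 0.0222, edgeR quasi-likelihood test). The call was kept without Alox15-/- 4 (1.69, adjusted p = 5.2e-05) and without WT 4 (1.61, adjusted p = 0.00501). It was lost without any 1 of the other 6 libraries, with log2 fold changes from 1.25 to 1.42 and adjusted p from 0.0772 to 0.116. It was also lost in limma-voom (1.29, adjusted p = 0.0904) and in edgeR with a block for replicate number (1.34, adjusted p = 0.0651). It was kept in DESeq2 (1.41, adjusted p = 0.0486). The direction was the same in each of these fits.

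Ccl17 is a product of dendritic cells and of some T cells. It had 24, 29, 50 and 4 reads in Alox15-/- 1 to 4 and 3, 4, 1 and 4 reads in WT 1 to 4. These correspond to 5.77, 7.83, 9.41 and 0.573 CPM against 0.468, 0.637, 0.100 and 0.835 CPM. The first 3 libraries labelled Alox15-/- again stood far above WT, and Alox15-/- 4 again fell within it. The group means were 5.89 ± 3.85 and 0.510 ± 0.312 CPM (SD, n = 4 each). With this 1 overlapping library the two-sided exact permutation test of the difference in means gave p = 0.0857, where 0.0286 is the smallest that 4 against 4 libraries allow. Ccl17 was not in the fit, and a lower filter would admit it only through the libraries in which it was high, so no fitted value is given. Within each library the Ccl17 count per Ccl22 count was 0.0163 to 0.0982 in the libraries labelled Alox15-/- and 0.00379 to 0.0186 in WT.

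Cxcl10 and Cxcl9 are interferon-induced ligands of Cxcr3 and lie on the minus strand of chromosome 5 (GRCm38), 18.6 kb apart, Cxcl10 (ENSMUSG00000034855.13) from 92346638 to 92348889 and Cxcl9 (ENSMUSG00000029417.9) from 92321347 to 92328079. Their promoters are shown in the same way, with capitals marking the interferon response element and the NF-kB consensus, because the pair shares inducers and a receptor.
Cxcl10, chr5:92348890-92349139, minus strand: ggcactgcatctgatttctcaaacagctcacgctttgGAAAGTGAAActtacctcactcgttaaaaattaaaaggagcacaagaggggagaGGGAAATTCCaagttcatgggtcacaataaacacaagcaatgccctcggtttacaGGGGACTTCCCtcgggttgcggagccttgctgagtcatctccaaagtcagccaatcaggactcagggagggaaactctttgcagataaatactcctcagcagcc
Cxcl9, chr5:92328080-92328329, minus strand: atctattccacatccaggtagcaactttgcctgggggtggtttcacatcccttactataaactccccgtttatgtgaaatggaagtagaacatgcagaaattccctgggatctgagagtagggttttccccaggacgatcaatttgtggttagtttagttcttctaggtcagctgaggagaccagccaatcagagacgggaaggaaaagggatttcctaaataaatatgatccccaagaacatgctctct
The Cxcl10 window held 1 interferon response element, beginning 213 bases before the start, and 3 NF-kB matches, beginning 159, 104 and 103 bases before it, the last pair overlapping, as well as 1 AP-1 match. The Cxcl9 window held none of these, and 1 run of TATAAA. The interferon response element is in 2.98% and the NF-kB consensus in 7.25% of all promoters of that length. Promoter sequences were at hand for 7 of the 10 members. Of the others examined, Ccl1 held 2 overlapping NF-kB matches, and Ccl3 and Xcl1 held no match to any of the 6.

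Cxcl10 levels were 3.36, 4.59, 4.33 and 1.86 CPM in Alox15-/- 1 to 4, and 1.09, 1.115, 0.602 and 2.09 CPM in WT 1 to 4. Only Alox15-/- 4 and WT 4 broke the separation of the groups. These levels rest on 6 to 23 reads per library. The means were 3.54 ± 1.23 and 1.22 ± 0.622 CPM (SD, n = 4 each), and the log2 fold change was 1.58 ± 0.41 (SE, edgeR adjusted p = 0.104), which did not pass. Of the 4 fits without 1 library in which it was tested, it passed in the one without Alox15-/- 4 (1.84, adjusted p = 0.0379). Cxcl10 shares 133 exonic bases with Art3, a gene on the opposite strand, at its own 3′ end, where these reads fall. Whether counting used the strand is not given in the sources used here, so reads of the pair may be split between them. Art3 stood at 0.810 to 1.72 CPM in the libraries labelled Alox15-/- and at 0.797 to 1.71 CPM in WT, ranges that nearly coincide.

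Cxcl9 had 5, 21, 10 and 0 reads in Alox15-/- 1 to 4 and 3, 6, 5 and 0 in WT 1 to 4, or 1.20, 5.67, 1.88 and 0 CPM against 0.468, 0.956, 0.502 and 0 CPM. A count of 0 allows a level of up to 0.624 CPM, as the limit for 3 counts in the smaller of the 2 libraries concerned, for counting error only. The groups overlapped, and Alox15-/- 2 was the highest by far. The exact permutation test gave p = 0.200.

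A list of 19 genes, all tested, held cytokines and transcription factors that can induce these and other chemokines (Ifng, Tnf, Rela, Nfkb1 and Rel among them) and 11 genes known to respond to interferon gamma. Of these, 4 were called higher and 0 lower, namely the guanylate-binding proteins Gbp2, Gbp5 and Gbp7 and the immunity-related GTPase Irgm2. The median log2 fold change was 0.36, and 15 of the 19 were above 0, the other 4 being Tnf and the NF-kB genes Rela, Nfkb1 and Rel. The Gbp5 and Irgm2 calls held without each library in turn. The Gbp2 call (0.88, adjusted p = 0.0171) was lost without Alox15-/- 1, 2 or 3 or WT 1, with log2 fold changes from 0.74 to 0.92 and adjusted p from 0.0537 to 0.0775. That of Gbp7 (1.22, adjusted p = 0.0239) was lost without Alox15-/- 1 or 2 or WT 1, 2 or 3, with 1.07 to 1.18 and adjusted p from 0.074 to 0.116. Irgm2 rose by 1.06 on the log2 scale (edgeR adjusted p = 0.0012) and Gbp5 by 0.90 (adjusted p = 0.00615). Irgm2 lies on chromosome 11 at -12.1 Mb from Alox15. It is thus within the 20 Mb window described below, where 22 of 419 tested genes (5.25%) were called. Ifng, the interferon itself, was at 21.6, 10.5, 9.41 and 5.15 CPM in Alox15-/- 1 to 4 and at 4.52, 6.53, 2.01 and 7.72 CPM in WT 1 to 4, with a log2 fold change of 1.20 ± 0.42 (SE) that did not pass (adjusted p = 0.386). Alox15-/- 4 was the lowest and WT 4 the highest of its group for Ifng, as for Cxcl10.

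Cxcl16 (ENSMUSG00000018920.11) is a chemokine made as a membrane protein, which binds Cxcr6 and is shed by the protease Adam10. Its levels were 4.57, 8.91, 8.47 and 2.58 CPM in Alox15-/- 1 to 4 and 2.03, 1.115, 1.91 and 1.46 CPM in WT 1 to 4. It was the 1 tested member whose groups did not overlap, a separation in this direction that 2.75% of all tested genes showed (and 2.5% in the other). The means were 6.13 ± 3.07 and 1.63 ± 0.419 CPM (SD, n = 4 each), on 7 to 45 reads per library. Its log2 fold change was 1.84 ± 0.39 (SE, edgeR adjusted p = 0.0278). Cxcl16 entered the test only through the group in which it was high, with 4 libraries labelled Alox15-/- and 0 labelled WT at 2 CPM before scaling, so a gene that entered this way had to differ, and its call and the separation of its groups describe these libraries without adding support. It was tested in only 4 of the 8 fits that left out 1 library, because without a library labelled Alox15-/- it reached 2 CPM in too few. Of the 4, the call was kept without WT 4 (1.79, adjusted p = 0.0407) and lost without WT 1, WT 2 and WT 3 (1.94, 1.70 and 1.94, adjusted p = 0.0765, 0.114 and 0.0613). It was also lost in limma-voom (1.61, adjusted p = 0.138) and kept in DESeq2 (1.88, adjusted p = 0.00131). Adam10, at 95.3 to 132 CPM in the libraries labelled Alox15-/- and 100.4 to 121 CPM in WT, had a log2 fold change of 0.00 ± 0.12 (SE), and Adam17 of -0.06 ± 0.13 (SE).

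Cxcl16 lies on the minus strand of chromosome 11 (GRCm38) from 70453983 to 70459984, 102 kb from Alox15. Its 5′ end shares 552 exonic bases with Zmynd15 on the opposite strand, and these are 5450 bases of genomic distance from its 3′ end. Ccl1, Ccl3, Ccl4 and Ccl5 lie on the same chromosome at 11.8, 13.3, 13.3 and 13.2 Mb from Alox15, so 5 of the 10 members are within 20 Mb of the targeted gene. Of the 419 tested genes in that window other than Alox15, 22 (5.25%) were called, 17 higher and 5 lower. Whether the part of chromosome 11 around the targeted gene differs in strain of origin between the groups was not tested. Of the 5 members there, 1 was called.

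**Figure D2:**
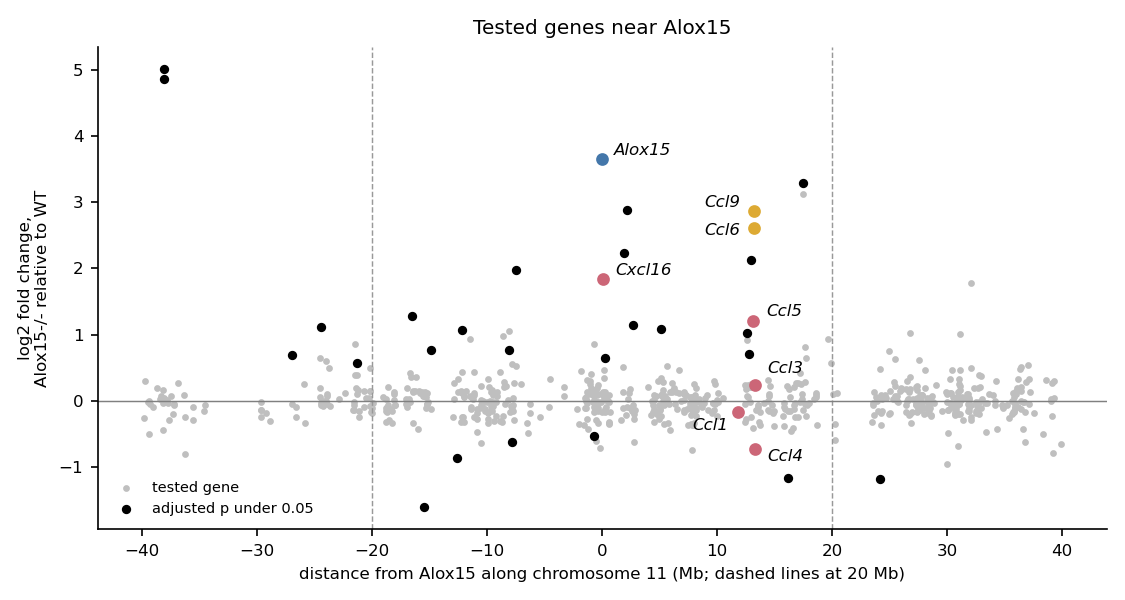
Each point is a tested gene on chromosome 11 up to 40 Mb from Alox15, with its distance from Alox15 in Mb on the horizontal axis and its log2 fold change (Alox15-/- relative to WT) on the vertical axis, where black points were called, red points are members, yellow points Ccl6 and Ccl9, and the blue point is Alox15. Cxcl16 sits almost at Alox15 at 1.84, whereas Ccl1, Ccl3, Ccl4 and Ccl5 sit at 11.8 to 13.3 Mb with values from -0.73 to 1.21, below Ccl6 and Ccl9 at 13.2 Mb.

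Xcl1 (ENSMUSG00000026573.7, chromosome 1, minus strand, 164931644 to 164935527) is lymphotactin, made by activated T cells and natural killer cells for dendritic cells that bear Xcr1. It was measured at 21.4, 13.5, 19.8 and 9.88 CPM in Alox15-/- 1 to 4 and at 6.40, 4.14, 3.11 and 11.5 CPM in WT 1 to 4. WT 4 alone reached into the other group, where it exceeded Alox15-/- 4. The means were 16.1 ± 5.38 and 6.28 ± 3.73 CPM (SD, n = 4 each). The log2 fold change of 1.42 ± 0.34 (SE) had an adjusted p of 0.0653 in edgeR and did not pass. It passed without Alox15-/- 4 (1.61, adjusted p = 0.0348) and without WT 4 (1.85, adjusted p = 0.00195), and in DESeq2 (1.39, adjusted p = 0.00347) and limma-voom (1.55, adjusted p = 0.0407).

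Ccl5 (ENSMUSG00000035042.2, chromosome 11, minus strand, 83525778 to 83530518) is RANTES, a late product of activated T cells. Its levels were 8.89, 6.75, 3.95 and 5.73 CPM in Alox15-/- 1 to 4 and 3.28, 2.07, 1.81 and 3.97 CPM in WT 1 to 4. The groups met at a single pair of libraries, Alox15-/- 3 and WT 4, which differed by less than the spread within either group. The means were 6.33 ± 2.06 and 2.78 ± 1.02 CPM (SD, n = 4 each). The log2 fold change was 1.21 ± 0.32 (SE, edgeR adjusted p = 0.116) and passed only without WT 4 (1.41, adjusted p = 0.043) among the 8 fits that left out a library, and in DESeq2 (1.22, adjusted p = 0.0478).

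Ccl3 (ENSMUSG00000000982.5, minus strand, 83647844 to 83649355) and Ccl4 (ENSMUSG00000018930.3, plus strand, 83662584 to 83664683) are the macrophage inflammatory proteins MIP-1α and MIP-1β, which lie 13.2 kb apart on chromosome 11 and are induced early after T cell receptor signaling. Ccl3 levels were 37.0, 23.0, 23.5 and 13.7 CPM in Alox15-/- 1 to 4 and 10.9, 13.1, 5.92 and 55.3 CPM in WT 1 to 4. WT 4 was the highest of all 8 libraries, and WT 1, 2 and 3 were below every library labelled Alox15-/-. The log2 fold change was 0.24 ± 0.51 (SE, edgeR adjusted p = 0.946). Without WT 4 it was 1.30 ± 0.30 (SE, adjusted p = 0.038), and without Alox15-/- 1 and without WT 3 it was -0.04 and -0.10.

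Ccl4 showed the same high library and a different order among the rest. Its levels were 49.5, 21.6, 35.2 and 21.04 CPM in Alox15-/- 1 to 4 and 31.5, 29.6, 10.9 and 143 CPM in WT 1 to 4. Apart from WT 4, the ranges overlapped. The log2 fold change was -0.73 ± 0.55 (SE, edgeR adjusted p = 0.819), and 0.43 ± 0.32 (SE, adjusted p = 0.769) without WT 4. Within each library the Ccl4 count per Ccl3 count was 1.34, 0.941, 1.496 and 1.53 in Alox15-/- 1 to 4 and 2.89, 2.27, 1.85 and 2.59 in WT 1 to 4. This ratio, chosen after its values were seen and not tested, was lower in all 4 libraries labelled Alox15-/-, and in WT 4 it was within the range of the other WT libraries although both levels were high.

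Ccl1 (ENSMUSG00000020702.13, minus strand of chromosome 11, 82176657 to 82305690), the ligand of Ccr8, was at 6.25, 2.70, 4.70 and 2.72 CPM in Alox15-/- 1 to 4 and at 4.52, 2.87, 1.81 and 10.02 CPM in WT 1 to 4. The WT libraries spanned the whole range of the others. The log2 fold change was -0.16 ± 0.46 (SE, edgeR adjusted p = 0.966) and 0.44 without WT 4.

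**Figure D3:**
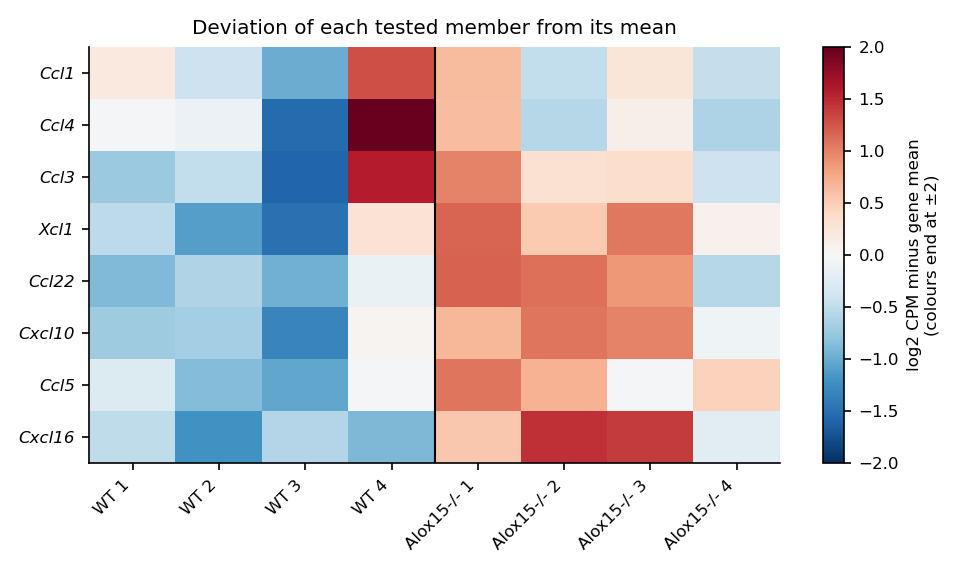
Rows are the 8 tested members and columns the 8 libraries, and the colour gives log2 CPM minus the mean of that gene, with red above and blue below it and the scale ending at ±2. Ccl1, Ccl4 and Ccl3 are reddest in WT 4, whereas Ccl22, Cxcl10 and Cxcl16 are red in Alox15-/- 1, 2 and 3 and pale or blue in Alox15-/- 4.

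Across the members the same libraries were often high or low. Alox15-/- 4 was lowest of its group for 8 of the 10 members, Ccl1 and Ccl5 being the exceptions, and WT 4 was highest of its group for 8, Cxcl9 and Cxcl16 being the exceptions. WT 3 was lowest of its group for 8, Cxcl9 and Cxcl16 again excepted. With both libraries numbered 4 left out, an alternative chosen after seeing the data, 3 members were called, Ccl22 (1.89, edgeR adjusted p = 1.71e-07), Xcl1 (2.05, adjusted p = 0.000209) and Ccl3 (1.52, adjusted p = 0.00332), while Cxcl10 and Cxcl16 were not in that fit and Ccl5 had an adjusted p of 0.0592. In that fit of 6 libraries, 146 of 12371 tested genes were called in all. For each of the 3 called members, the libraries left out were the lowest labelled Alox15-/- and the highest WT. Leaving them out therefore widened the difference, and these calls add no support.

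The profile most like each member across the 8 libraries was taken as the smallest root-mean-square difference between log2 CPM values centred on the mean of each gene, among tested genes with a mean of at least 5 CPM. For Ccl22 these were Cst7, Fscn1 and F2r, at differences of 0.31, 0.34 and 0.38 on the log2 scale, where Ccl22 itself varied by 0.85 about its mean. For Cxcl10 they were Cst7, Ccl22 and Vat1 (0.19, 0.30 and 0.32), and for Xcl1 Cst7, Cxcr6 and S100a4 (0.37, 0.38 and 0.43). Cst7, which encodes the protease inhibitor cystatin F, was thus nearest to 3 of the members, and was itself called higher (log2 fold change 1.47, edgeR adjusted p = 0.0238). The profiles include the difference between the groups, so a gene near a member that differs tends to share its difference. The Cst7 call is hence a description and adds no support. For Ccl5 the nearest were Rhob, Rtp4 and Slfn5 (0.17, 0.21 and 0.22), and for Cxcl16 Ifit3, Tcrg-C4 and Ube2l6 (0.28, 0.29 and 0.32). The rule covered members with an unadjusted p under 0.05 and was extended to the other 3 after their values were seen. Ccl4 was then nearest to Tnfsf9, Tnfsf14 and Egr3 (0.27, 0.39 and 0.39), Ccl3 to Tnfsf9, Cxcr6 and Ifi206 (0.43, 0.45 and 0.48), and Ccl1 to Bcl2a1a, Zfp385a and Egr3 (0.23, 0.26 and 0.27). Bcl2a1a, Ifi206 and Tcrg-C4 belong to families of close copies, so their counts are uncertain. Tnf, which encodes tumor necrosis factor, was also highest in WT 4, at 135.5 CPM against 28.1 to 61.3 CPM in the other 7 libraries.

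Of 31 further chemokine genes listed, 16 were in the table and 4 were tested. Both called ones were higher, Ccl6 and Ccl9, which are CC chemokines of the myeloid lineage in mice. Ccl9 levels were 16.3, 28.9, 15.1 and 7.87 CPM in Alox15-/- 1 to 4 and 2.03, 2.71, 1.81 and 2.71 CPM in WT 1 to 4, with a log2 fold change of 2.87 ± 0.36 (SE, edgeR adjusted p = 0.000298). Ccl6 levels were 9.13, 20.3, 11.1 and 3.01 CPM against 1.72, 2.23, 1.20 and 1.88 CPM, with a log2 fold change of 2.60 ± 0.47 (SE, adjusted p = 0.00752). The groups did not overlap for either gene. The Ccl9 call held without each library in turn. Before scaling, both reached 2 CPM in 4 libraries labelled Alox15-/-, and among those labelled WT Ccl6 did in 1 and Ccl9 in 2, so the group in which they were high was enough for them to enter the test, and these calls and separations are given as a description. In limma-voom Ccl6 had an adjusted p of 0.113. Their levels were highest in Alox15-/- 2 and lowest, within that label, in Alox15-/- 4. Ccl20, the ligand of Ccr6, did not pass (log2 fold change 1.64 ± 0.49, SE, adjusted p = 0.221), and Ccl25, a chemokine of thymus and gut, stood at 4.72 to 5.77 CPM and 4.82 to 5.62 CPM with a log2 fold change of -0.01.

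Among the receptors, 20 of 23 listed were in the table, 10 were tested and 0 were called by edgeR at the adjusted threshold, with 1, Cxcr6, at an unadjusted p under 0.05. DESeq2 and limma-voom also called 0. Cxcr6, the receptor of Cxcl16, was at 8.41, 8.91, 6.58 and 2.86 CPM in Alox15-/- 1 to 4 and at 3.12, 2.55, 1.30 and 6.68 CPM in WT 1 to 4, so that the libraries numbered 4 changed places relative to the rest. Its log2 fold change was 1.02 ± 0.44 (SE, edgeR adjusted p = 0.581), and 1.82 (adjusted p = 0.0056) with both libraries numbered 4 left out. That alternative was chosen after the values were seen and drops the libraries that were out of order, so it adds no support. With single libraries left out, the lowest adjusted p was 0.0861, without WT 4. Ccr4, the receptor of Ccl17 and Ccl22, was even across the libraries, at 19.0 to 22.8 CPM and 18.1 to 23.4 CPM, with a log2 fold change of -0.02 ± 0.14 (SE). Cxcr3, the receptor of Cxcl9 and Cxcl10, had a log2 fold change of 0.25 ± 0.31 (SE) and Ccr8, the receptor of Ccl1, of -0.40 ± 0.28 (SE), and neither passed (adjusted p = 0.891 and 0.796). Ccr1 and Xcr1 failed the filter. Xcr1 did not exceed 1.46 CPM in any library.

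Dpp4, or CD26, is a surface peptidase that trims the N-terminus of several chemokines, Cxcl10 and Ccl22 among them. It was at 15.6, 18.4, 15.8 and 14.0 CPM in Alox15-/- 1 to 4 and at 8.42, 8.92, 9.83 and 6.47 CPM in WT 1 to 4, and the groups did not overlap. Dpp4 rose by 0.89 ± 0.18 on the log2 scale (SE, edgeR adjusted p = 0.0159). The call was kept without Alox15-/- 4, WT 3 and WT 4 and lost without each of the other 5 libraries, where the log2 fold change was between 0.83 and 0.92 and the adjusted p between 0.05004 and 0.0775.

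**Figure D4:**
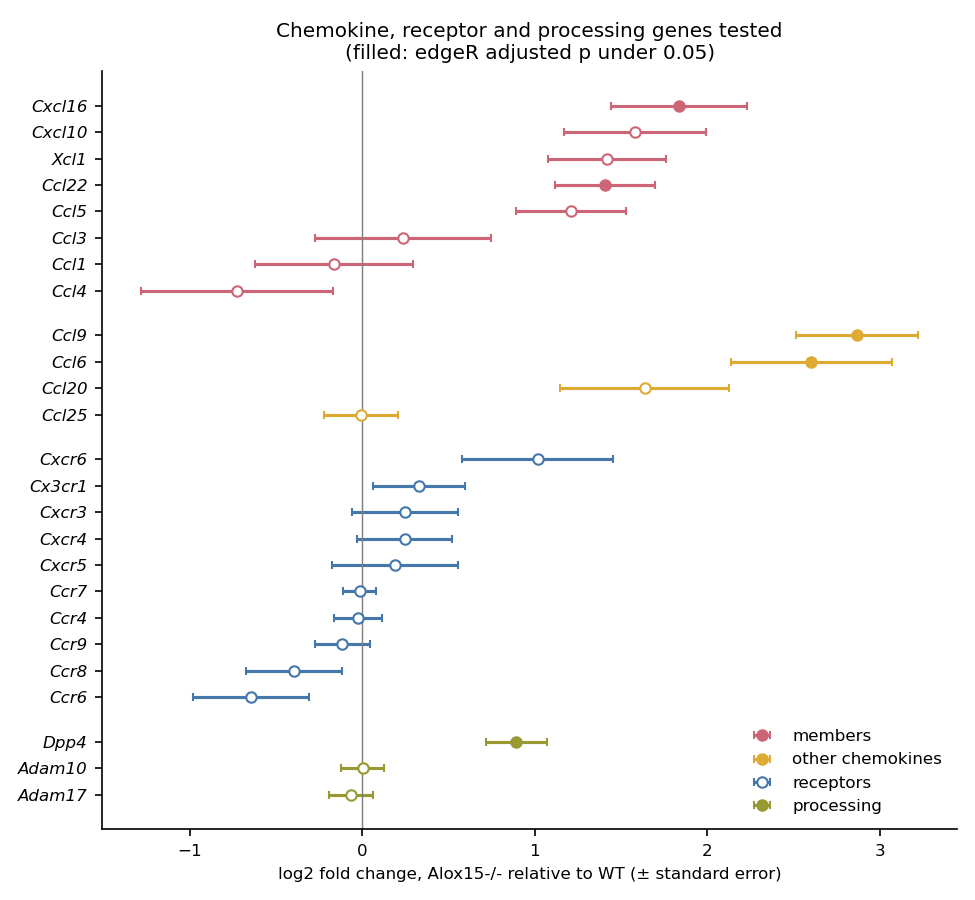
Points give the log2 fold change (Alox15-/- relative to WT) of the tested members, further chemokines, receptors and processing genes, bars the standard error, and filled points the genes called by edgeR. Ccl9 at 2.87 and Ccl6 at 2.60 lie farthest to the right, 5 of the 8 members lie between 1.21 and 1.84, and the receptors lie between -0.65 and 1.02 with none filled.

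Markers of other cell types moved with these groups. Of 13 marker lists, the summed level was higher in every library labelled Alox15-/- than in every WT library for 7, lower for 1 (B cells) and overlapping for 5, T cells, Tregs, CD8 T cells, natural killer cells and dendritic cells. Neutrophil markers summed to 43.5, 243, 143 and 10.9 CPM in Alox15-/- 1 to 4 and to 3.43 to 4.18 CPM in WT, with Ly6g at 0 in all WT libraries and 3 of 6 markers tested and called higher. Mast cell and basophil markers summed to 173, 320.2, 149 and 108 CPM against 26.5 to 47.0 CPM, with 6 of 6 called higher. Eosinophil markers summed to 20.2 to 72.1 CPM against 1.25 to 10.4 CPM (2 of 6 tested, both called higher, Ear2 at 0 in WT), of which the receptor gene Ccr3 gave 6.21 CPM in WT 2 and at most 0.301 CPM elsewhere, and monocyte and macrophage markers to 22.1 to 81.0 CPM against 5.32 to 11.1 CPM (2 of 7 tested, 1 higher). The 4 markers of gamma-delta T cells were all called higher and summed to 77.6 to 140.4 CPM against 26.6 to 43.8 CPM. Among them Tcrg-C1, Tcrg-C2 and Tcrg-C4 belong to a family of close copies, so their separate counts and calls are uncertain. Platelet markers summed to 3.12 to 14.0 CPM against 0.797 to 1.61 CPM, and erythroid markers to 902 to 3467 CPM against 32.8 to 122 CPM. The tested markers S100a9, Ngp, Ms4a2, Prss34 and Alas2 reached 2 CPM in 0 WT libraries before scaling and S100a8, Fcer1a and Gata2 in 1, so they entered the test through the group in which they were high and their calls add no support to the sums. Itga2b, the 1 platelet marker tested, entered likewise, as the whole platelet sum did not exceed 1.61 CPM in WT, and was not called. Alox15-/- 4 had the lowest neutrophil, eosinophil, mast cell, gamma-delta T cell, erythroid and natural killer cell sums of its group, and Alox15-/- 1 the lowest monocyte and macrophage and platelet sums. The part of these cells in the chemokine differences was not tested. WT 4, in which Ccl3, Ccl4 and Ccl1 were high, had the highest mast cell and basophil (47.0 CPM), monocyte and macrophage (11.1 CPM), erythroid (122 CPM), natural killer cell (7.72 CPM) and, by a small margin, neutrophil (4.18 CPM) sums of WT, and a gamma-delta T cell sum (34.5 CPM) inside the range of the others.

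Natural killer cells, a known source of Xcl1, are among the cells that the negative selection of naïve CD4+ T cells is meant to remove. Their 6 markers summed to 10.1, 20.3, 14.7 and 5.58 CPM in Alox15-/- 1 to 4 and to 7.33, 3.03, 6.02 and 7.72 CPM in WT 1 to 4, so that Alox15-/- 1, 2 and 3 lay above every WT library and Alox15-/- 4 within them. The 1 marker tested, Klrk1, had a log2 fold change of 1.06 ± 0.35 (SE, edgeR adjusted p = 0.324), and the part of these cells in the Xcl1 difference was not tested.

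Dendritic cells, a known source of Ccl17 and Ccl22, are likewise meant to be removed. Their markers summed to 4.33, 6.75, 4.89 and 3.29 CPM in Alox15-/- 1 to 4 and to 4.37, 4.46, 2.91 and 4.38 CPM in WT 1 to 4, so the groups overlapped. Of 7 markers 5 were in the table and 1, Zbtb46, was tested, with a log2 fold change of 0.02. Cd209a was at 0 in all WT libraries. The integrin gene Itgax stood at 0.481, 3.78, 1.69 and 0.143 CPM in Alox15-/- 1 to 4 and at 0.312 to 0.502 CPM in WT, and Xcr1 at 0.481, 0, 0 and 0.573 CPM against 0.468, 0, 0.201 and 1.46 CPM.

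**Figure D5:**
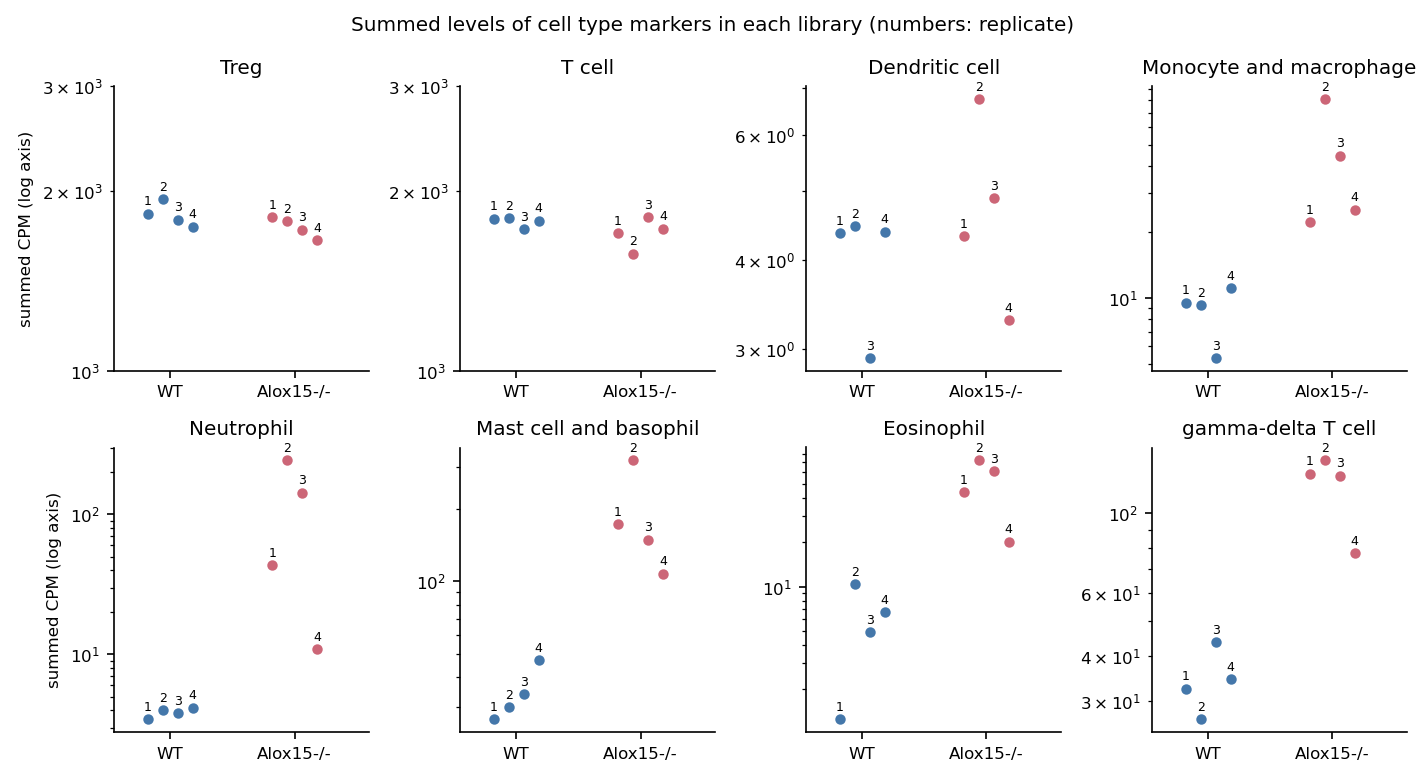
Each panel plots the summed CPM of 1 marker list on a log axis, with 1 point per library and its replicate number. The Treg, T cell and dendritic cell sums overlap between the groups, the other 5 sums are higher in every library labelled Alox15-/-, and Alox15-/- 4 is the lowest of its label for the neutrophil (10.9 CPM), mast cell, eosinophil and gamma-delta T cell lists.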

How the data were processed

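The authors deposited raw counts of reads for each gene symbol, without normalization, in 1 table with 1 column per library, and 0 columns lacked a sample. The kit is a small RNA kit per the labels and a MACE-Seq Kit per the methods. The submitters' processing notes name Bowtie, edgeR and GRCm38 without roles or versions, and the labels say that reads were cleaned and trimmed. The counting tool, its use of strand and the treatment of duplicate reads are not given in the sources used here.

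Library totals were scaled by TMM. The 12700 genes that reached 2 CPM in 4 or more libraries were compared with the quasi-likelihood test of edgeR 4.0.16 in R 4.3.3, fitted on group alone, with Benjamini–Hochberg adjustment over all of them at 0.05. The biological coefficient of variation was 14.5%. The steps were tested on simulated data. Members failing the filter were compared by exact permutation (scipy 1.17.1, two-sided). Intervals and limits for 0 counts cover counting error only.

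The 10 members and all gene lists were chosen with earlier results of these data known. Named genes are the members, other chemokine and receptor genes that were called, the receptors of members, Alox15, and the 3 genes nearest in profile to each member with an unadjusted p under 0.05. Other genes were named after their values were seen. Alternatives were RLE and upper quartile scaling, no filter, 1 CPM in 4 or 3 libraries, DESeq2 1.42.0, limma-voom (limma 3.58.1), a replicate block, plain library totals, each library left out, and both libraries numbered 4 left out. Positions came from GENCODE M21 (GRCm38) and promoters from RefSeq (GRCm38.p6). Apart from the 3 overlapping genes on opposite strands (Art3, Zmynd15 and Gm20743), no gene matched the transcripts of the members at 90% identity over 50 bases. Tables used pandas 2.3.3 in Python 3.11.15 and figures matplotlib 3.10.9. Some genes of the lists are not reported here.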

Additional observations from a re-analysis of the deposited data

Results flagged for a closer look

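In 68 groups of 4 libraries, covering the levels of the 10 members, the 4 further chemokine genes tested, the 4 tested receptors of members and the 3 processing genes, and the 13 marker sums, 6 (8.82%) held a library far from the other 3 by Dixon's test, where chance gives about 5% of groups. WT 4 stood apart in 3 chemokine genes, all on the high side. Its Ccl4 level was 143 CPM where the other WT libraries had 10.9 to 31.5 CPM, its Ccl3 level was 55.3 CPM where they had 5.92 to 13.1 CPM, and its Ccl20 level was 2.505 CPM where they had 0.478 to 0.624 CPM. Among the marker sums, WT 2 was low for CD8 T cells at 21.35 CPM, WT 3 was low for dendritic cells at 2.91 CPM, and Alox15-/- 1 was low for B cells at 5.53 CPM. No library is left out of the values above on this ground. Genes outside these, such as Ccr3, were not examined in this way.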

How the results depend on the processing

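Which members were called depended on the processing. The 2 calls among 8 tested members became 8 among all 10 without a filter. They became 4 in DESeq2 (Ccl22, Cxcl16, Ccl5 and Xcl1), 1 in limma-voom (Xcl1), and 0 to 5 with single libraries left out. Over all genes, 158 of 12700 were called, 388 of 28239 without a filter, 194 of 12700 in DESeq2 and 140 of 12700 in limma-voom. When libraries were left out, 86 to 173 were called, of 12533 to 12609 tested. In the fit without a filter the standard error of Ccl4 fell to 0.142, so its calls are not used here. Further chemokine genes called were 2, 4 without a filter and 1 in limma-voom, and receptors called were 0, 2 without a filter and 1 with both libraries numbered 4 left out. The median log2 fold change of the tested members was 1.31, and 0.49 to 1.41 when libraries were left out, which also changed which members passed the filter.

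Deviations of same-numbered libraries were weakly correlated and in both directions (correlations of 0.0691, 0.165, -0.178 and -0.0177). These values do not show a pairing, and they cannot exclude that same-numbered libraries were prepared together. With a replicate block 1 member, Cxcl16, and 146 genes were called (Ccl22 had 1.34, adjusted p = 0.0651), and Alox15-/- 2 and WT 2 were the 1 pair in which both correlated best with their own number.

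Directions reversed only for genes that were not called, and the cause was not tested. Ccl1 was 0.12 in limma-voom and 0.64 with both libraries numbered 4 left out, Ccl4 was 0.60 in the latter, and leaving out each library gave -0.48 to 0.44 for Ccl1, -0.10 to 1.30 for Ccl3 and -1.08 to 0.43 for Ccl4. Ccl25 was 0.0216 with upper quartile scaling, 0.0002 with the replicate block, 0.0552 with both libraries numbered 4 left out and -0.0535 to 0.0532 with each left out. Ccr4 was 0.005 with upper quartile scaling and -0.0943 to 0.0353 with each left out. Adam10 was -0.0197 without a filter, -0.0168 in limma-voom, -0.0047 with the replicate block and -0.0773 to 0.0801 with each left out, and Adam17 was 0.0397 with both libraries numbered 4 left out and -0.14 to 0.0167 with each left out. Scaling by plain library totals reversed no level. Low counts limit Cxcl10, Cxcl16, Ccl17 and Cxcl9 most.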

Other observations

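Some chemokine system genes with too few reads to be tested were unevenly spread, and were chosen after their values were seen. Pf4, the platelet chemokine CXCL4, was at 0.429 to 6.48 CPM in the libraries labelled Alox15-/- and did not exceed 0.418 CPM in WT. The platelet marker sums, of which Pf4 is itself a part, were 3.12 to 14.0 CPM and 0.797 to 1.61 CPM. Ccr1, a receptor of Ccl3 and Ccl5 found on myeloid cells, was at 0.429 to 1.35 CPM against at most 0.159 CPM in WT. The atypical receptor gene Ccrl2 was at 0.286 to 1.62 CPM against at most 0.201 CPM in WT. Ccr3, the eotaxin receptor of eosinophils, went the other way in 1 library, with 39 reads (6.21 CPM) in WT 2 and at most 0.301 CPM in each of the other 7. These values rest on few reads and the groups were not tested for these genes.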
